A study of Mus musculus with 4 samples.

Results

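The 37 genes described here encode proteins that detect and repair DNA damage. They were taken as the rows of the deposited count table whose Ensembl identifier carries one of 37 given gene symbols in GENCODE release M21 (GRCm38), and all 37 were found among the 45706 genes of the table. Replicates 1 to 4 are libraries of total RNA from basal radial glia of the medial neocortex, progenitors that have left the ventricular surface, of E18.5 mouse embryos (strain C57BL/6JOlaHsd, genotype Tubb-GFP/+). The library titles name the dye DiI, but the labels do not say how dye and reporter were used for isolation. All 4 libraries form a single group, so the data hold levels and no contrast between conditions. Whether each library had its own animals is not labelled, so every p-value reflects library-to-library spread that could be purely technical.

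Cells mend DNA by several routes. Base excision repair removes single damaged bases, nucleotide excision repair cuts out bulky lesions together with the bases around them, and mismatch repair corrects copying errors behind the replication fork. Double-strand breaks are sensed by kinases and their mediators and are then closed either by end joining, which works in all phases of the cell cycle and also in cells that have stopped dividing, or by homologous recombination, which copies the sister chromatid and is largely limited to S and G2 phase. The Fanconi pathway acts with recombination on cross-links between the DNA strands. In the embryonic cortex, progenitors divide fast and meet replication errors, and mice lacking core end-joining factors lose many newborn neurons.

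Levels are given as TPM, computed from the deposited counts. Counts were divided by the merged exon length of each gene, and every library was scaled to the same sum. This puts genes of unlike length on one scale, but some orders between genes changed with the length used. The cDNA was primed with poly-dT, and whether long transcripts were captured differently was not tested. Library totals were between 26540656 and 34837657 counts, and the members had between 69 (Fanca, replicate 4) and 10415 (Parp1, replicate 2) counts per library. Markers of the labelled cell type were present, with all 7 radial glia genes above 10 TPM (Hes5 lowest, 12.7 TPM; Fabp7 highest, 4631 TPM). All 5 neuron genes were also above 10 TPM, from 159 TPM for Dcx to 6691 TPM for Tubb3. So were all 5 intermediate progenitor genes, from 15.2 TPM for Neurog2 to 511 TPM for Gadd45g, and all 5 erythroid genes. The median of mean TPM was 30.1 over the radial glia list. It was 119 over the intermediate progenitor, 662 over the neuron and 587 over the erythroid list, and 4.02 for microglia and 0.838 for endothelium genes. No listed marker gene of radial glia or neurons was at 0 counts, and the part of other cell types in the levels of repair genes was not tested. In such bulk samples, fewer cells of a type and less RNA per cell cannot be told apart.

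Many genes of the recombination and replication machinery are known targets of E2F, the transcription factor family that switches on S phase genes. RefSeq promoter windows (GRCm38.p6, 250 bases before to 50 bases after the start site) were matched by symbol for 30 of the 37 members. An E2F-like octamer, TTTCCCGC, TTTCGCGC, TTTGCCGC or TTTGGCGC on either strand, lay in 6 of these 30 windows (20%), against 744 of all 32851 windows (2.26%). By route these were 2 of 8 recombination, 2 of 3 mismatch repair, 1 of 4 end-joining and 1 of 6 signalling members. None of the 4 base excision, 3 nucleotide excision and 2 Fanconi members with a window had one. The motifs do not include one another, but occurrences can overlap, as in Msh3. A match describes the letters only and is no evidence of binding. All 3 members whose octamer lies before the start site and outside any annotated exon were below 10 TPM. Their windows are shown for that position of the octamer and not for their level. Capitals mark the octamer in these windows. They lie at chr5:150522427-150522486 (plus strand) for Brca2, at chr1:71103148-71103207 (minus strand) for Bard1 and at chr5:110839805-110839864 (plus strand) for Chek2, and each is written along its gene's strand.
Brca2: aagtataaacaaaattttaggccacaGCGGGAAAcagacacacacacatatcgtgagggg
Bard1: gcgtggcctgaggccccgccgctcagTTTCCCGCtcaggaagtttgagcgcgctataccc
Chek2: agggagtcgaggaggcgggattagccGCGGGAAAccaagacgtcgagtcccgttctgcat
In Bard1 the octamer begins 209 bases before the RefSeq start site and reads along the gene. In Brca2 (168 bases before) and Chek2 (152 bases before) it reads on the opposite strand. The GENCODE model of Bard1 starts at 71103146, upstream of the RefSeq start site and nearer to the octamer. Members with an octamer had a median of 7.93 TPM (1.62 to 64.2 TPM, the highest being Xrcc6), and members without it a median of 10.8 TPM (1.43 to 172 TPM). These ranges overlapped. The general promoter element CCAAT, searched in the same way, lay in 18 of the 30 windows (60%) and in 37.4% of all windows.

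All 37 members were above 1 TPM by edgeR's quasi-likelihood test (Benjamini-Hochberg adjusted over all 20991 genes tested, threshold 0.05). Of all genes tested 65.9% were called above 1 TPM, and of the 15401 protein-coding genes 75.7%, so a call above 1 TPM is common. The highest adjusted p was 0.0255 for Fanca, and the next was 0.00157 for Bard1. Against a level of 10 TPM, 18 members were above, 14 below and 5 not called, where 35.2% of all genes and 45.2% of protein-coding genes were above and 58.0% and 48.7% below. The share of members above 10 TPM thus lay near that of protein-coding genes. The same shares are the background for the counts by route given below. The median member stood at percentile 53.7 of protein-coding genes by mean TPM, and 23 of 37 members were above the 50th percentile. Among themselves the members spanned 120-fold, from 1.43 TPM for Fanca to 172 TPM for Parp1. The 5 most abundant members, Parp1, Apex1, Xrcc5, Ercc1 and Xrcc6, held 60.5% of the summed TPM of all 37, and together the members made up 0.0959% of all TPM.

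**Figure D1:**
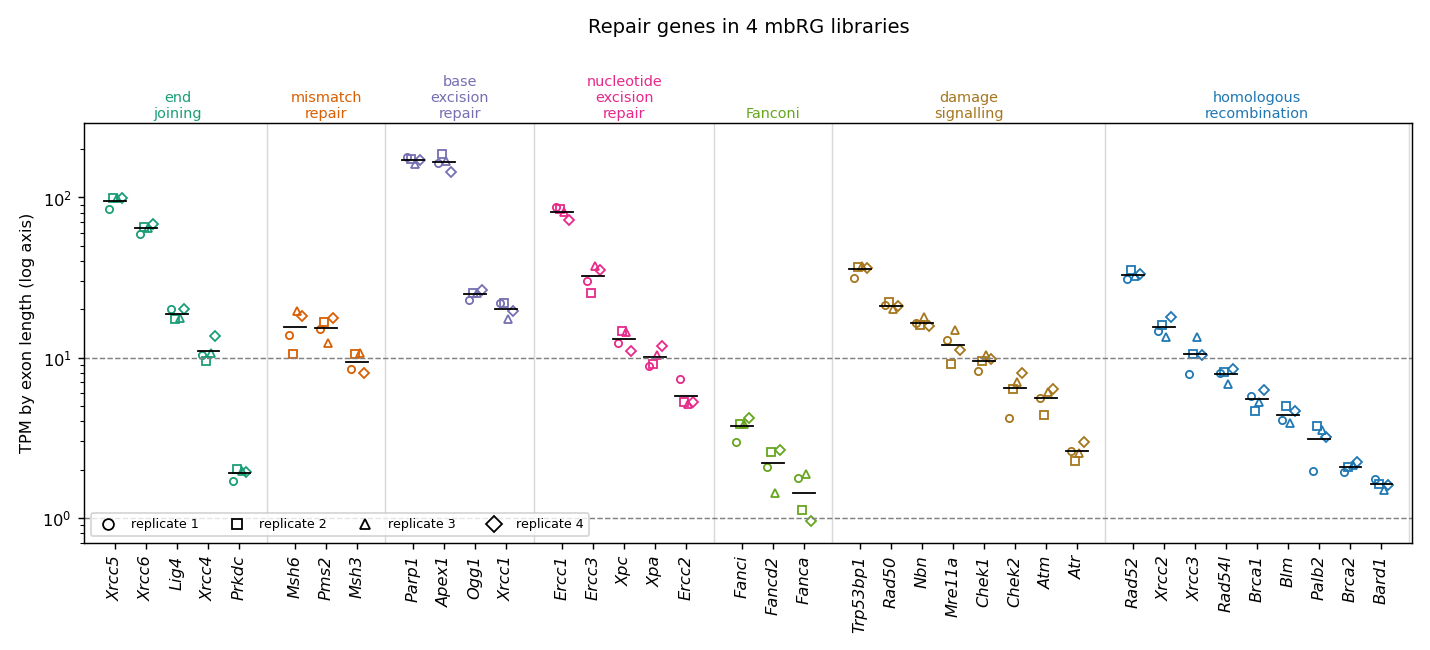
TPM by exon length (log axis) of the 37 repair genes in each of the 4 mbRG libraries, by repair group; symbols are libraries, bars are means and dashed lines mark 1 and 10 TPM. Parp1 (172 TPM) and Apex1 (166 TPM) stand highest, and the 3 Fanconi genes lie between 1.43 and 3.73 TPM.

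Base excision repair had the most abundant members, and all 4 were above 10 TPM. Parp1, whose product senses single-strand breaks and attaches poly(ADP-ribose) chains to nearby proteins, was at 180, 175, 162 and 172 TPM in replicates 1 to 4 (mean 172 ± 7.29 TPM, SD, n = 4; GRCm38 chromosome 1, 180568924 to 180601254). Apex1, the endonuclease that cuts the backbone where a base is missing, was at 165, 187, 168 and 145 TPM (166 ± 17.3 TPM; chromosome 14, 50924968 to 50927139). Parp1 stood at percentile 94.0 and Apex1 at percentile 93.8 of protein-coding genes. The Apex1 value is uncertain, since 61.7% of its exonic bases lie opposite exons of Pip4p1, which itself was at 4.11 ± 1.16 TPM. Ogg1, the glycosylase that removes oxidised guanine, was at 24.96 ± 1.41 TPM and Xrcc1, the scaffold that gathers the repair enzymes, at 20.2 ± 2.12 TPM (SD, n = 4 each). With its longest transcript as length Xrcc1 was at 35.3 TPM.

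The nucleotide excision members ranged from 5.77 to 81.3 TPM in mean level, and 3 of 5 were above 10 TPM. Ercc1, part of the nuclease that cuts on the side before the lesion, was at 86.8, 84.4, 81.7 and 72.2 TPM (81.3 ± 6.40 TPM, SD, n = 4). With the longest transcripts as length it was at 139 ± 10.9 TPM, above Xrcc5 at 72.4 ± 5.30 TPM. Its partner Ercc4, a gene of the wider list described later, was at 14.9 ± 1.501 TPM. The helicase genes of the transcription factor complex TFIIH differed: Ercc3 was at 30.3, 25.5, 37.4 and 35.5 TPM and Ercc2 at 7.40, 5.26, 5.14 and 5.30 TPM. Every Ercc3 value exceeded every Ercc2 value. The Ercc2 value is uncertain, with 42.4% of its exonic bases opposite exons of Klc3 and Gm26852, at levels of 0.498 TPM for Gm26852 and 0.315 TPM for Klc3. Xpc, the damage sensor of the global genome branch, was at 13.1 ± 1.75 TPM (above 10 TPM, edgeR adjusted p = 0.00188), and Xpa, which verifies the lesion, was not called on either side of 10 TPM at 10.1 ± 1.37 TPM (edgeR adjusted p = 0.943).

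Among end-joining genes, the Ku subunits were high and the kinase they recruit was low. Xrcc5 and Xrcc6 encode the 2 subunits of Ku, the ring that threads onto broken ends. Xrcc5 was at 85.2, 99.1, 98.6 and 99.5 TPM and Xrcc6 at 58.8, 65.1, 64.6 and 68.5 TPM. Both were lowest in replicate 1. Prkdc, the catalytic subunit of the DNA-dependent protein kinase, was at 1.70, 2.02, 1.95 and 1.92 TPM, with 201 to 300 counts per library, and was called below 10 TPM (log2 difference from 10 TPM -2.40 ± 0.11, SE; edgeR adjusted p = 6.66e-08). Lig4, the ligase that seals the ends, was at 18.8 ± 1.54 TPM, and Xrcc4, which holds it, at 11.1 ± 1.84 TPM (SD, n = 4 each). Xrcc4 was not called against 10 TPM (edgeR adjusted p = 0.209).

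Mismatch repair was represented by 3 genes. Msh6, which pairs with the common MutS subunit to recognise single mispaired bases, was at 13.9, 10.5, 19.6 and 18.1 TPM, and Pms2, the endonuclease subunit of MutL, at 15.1, 16.7, 12.3 and 17.6 TPM. Both were above 10 TPM (edgeR adjusted p = 0.00100 for Msh6 and 5.85e-05 for Pms2), and Msh6 had the largest SD of log2(TPM + 1) of the 37 members (0.38). Msh3, which serves for larger loops, was at 8.50, 10.6, 10.6 and 8.05 TPM and was not called (edgeR adjusted p = 0.390). With the longest transcript as length the order changed, with Msh3 at 18.9 TPM and Msh6 at 12.001 TPM, and the Msh6 call was lost (edgeR adjusted p = 0.0850).

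Of 8 damage signalling genes, 4 were above and 3 below 10 TPM. Trp53bp1, a chromatin mediator that favours end joining over resection, led with 31.6, 36.6, 37.5 and 36.5 TPM. The subunits of the MRN complex, which holds and trims broken ends, came next: Rad50 at 21.1 ± 0.874 TPM, Nbn at 16.6 ± 0.968 TPM and Mre11a at 12.01 ± 2.44 TPM (SD, n = 4 each). The Mre11a call above 10 TPM (edgeR adjusted p = 0.0410) was lost without replicate 1 (adjusted p = 0.141) and without replicate 3 (adjusted p = 0.268). The checkpoint kinase genes were lower, with Chek1, which acts at stalled forks, at 9.49 ± 0.903 TPM and Chek2, which acts after breaks, at 6.42 ± 1.63 TPM. Chek1 was not called against 10 TPM (edgeR adjusted p = 0.457). Chek2 had 4.21 TPM in replicate 1 and between 6.36 and 8.05 TPM in the other libraries. The apical kinases were at 5.61 ± 0.896 TPM for Atm and 2.60 ± 0.301 TPM for Atr. The Atr level rests on a merged exon length of 23629 bases, and was 5.74 TPM with the longest transcript of 8102 bases.

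Of 9 homologous recombination genes 6 were below 10 TPM and 2 above, against 48.7% of protein-coding and 58.0% of all genes below. The exceptions above it were Rad52, at 30.8, 35.01, 32.6 and 33.3 TPM, an annealing factor whose loss is mild in mice, and Xrcc2, a paralogue of the strand-exchange recombinase, at 14.6, 16.1, 13.6 and 18.01 TPM (15.6 ± 1.93 TPM). Xrcc3, another such paralogue, was at 10.6 ± 2.32 TPM and not called (edgeR adjusted p = 0.539). The motor protein gene Rad54l averaged 7.86 ± 0.720 TPM. It was called below 10 TPM with merged exons (edgeR adjusted p = 0.00406), a call that ended with the longest transcript as length. The helicase gene Blm was at 4.40 ± 0.519 TPM. The genes of the BRCA complexes were all below 10 TPM, and Palb2, Brca2 and Bard1 were the lowest of the 9. Brca1, which directs resection, was at 5.77, 4.65, 5.29 and 6.29 TPM, and its binding partner Bard1 at 1.74, 1.63, 1.49 and 1.61 TPM. Brca2, which loads the recombinase onto DNA, was at 1.93, 2.06, 2.14 and 2.21 TPM, and Palb2, the link between Brca1 and Brca2, at 1.95, 3.76, 3.52 and 3.19 TPM. Replicate 1 stood lowest for Palb2, with 128 counts against 193 to 311 in the other libraries. Bard1 was called above 1 TPM by 0.69 ± 0.16 (log2, SE; edgeR adjusted p = 0.00157), but not with its longest transcript as length (0.29, adjusted p = 0.102). Brca2 was called above 1 TPM by 1.06 ± 0.10 (log2, SE; edgeR adjusted p = 1.60e-06).

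All 3 Fanconi genes were below 10 TPM. Fanci was at 2.98, 3.85, 3.86 and 4.22 TPM and Fancd2 at 2.08, 2.56, 1.43 and 2.66 TPM, and their products form the clamp that closes on cross-linked DNA. Fanca, part of the core complex that marks this clamp with ubiquitin, was at 1.76, 1.13, 1.89 and 0.956 TPM. Its exact Poisson 95% intervals over the libraries ran from 0.744 to 2.21 TPM, which covers counting error only. The call of Fanca above 1 TPM (0.52 ± 0.19, log2, SE; edgeR adjusted p = 0.0255) was lost without replicate 1 (adjusted p = 0.127) and without replicate 3 (adjusted p = 0.157).

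The repair routes were summarised in each library as the median of log2(TPM + 1) over the genes of the route, with no test. The excision median, base and nucleotide excision together, was 4.70 ± 0.080 and the recombination median 2.72 ± 0.12 (SD, n = 4), a difference of 1.98 ± 0.14 with excision higher in 4 of 4 libraries. End joining, at 4.30 ± 0.11, exceeded recombination by 1.59 ± 0.047 and mismatch repair, at 3.85 ± 0.29, by 1.13 ± 0.17, each in 4 of 4 libraries. Fanconi genes, at 1.72 ± 0.16, were below recombination by -1.002 ± 0.18, again in 4 of 4 libraries. Damage signalling, at 3.53 ± 0.16, was above recombination by 0.82 ± 0.19. That last direction depended on the grouping, and the difference was -0.52 ± 0.13 when the MRN genes were counted with recombination and Trp53bp1 with end joining. Within excision repair, the base branch (6.02 ± 0.050) exceeded the nucleotide branch (3.83 ± 0.14) by 2.186 ± 0.10. The orders of mismatch repair and Fanconi genes against recombination, and of the excision branches, were the opposite in the wider list described later. On the same scale all 37 members had a median of 3.59 ± 0.11, against 3.31 ± 0.024 for protein-coding genes tested. With 3 to 9 genes per route, these medians describe the listed genes and not the routes as a whole.

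**Figure D2:**
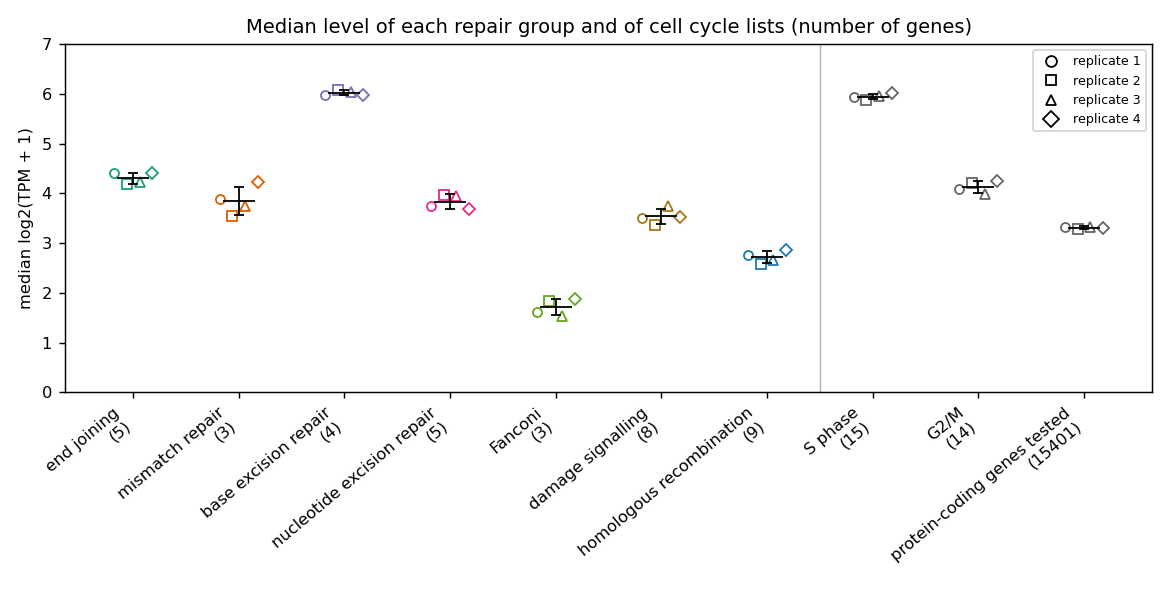
Median log2(TPM + 1) of each repair group (number of genes in parentheses), of the S phase and G2/M lists and of all protein-coding genes tested; symbols are the 4 libraries and bars the mean ± SD. Base excision repair (6.02) lies beside the S phase list (5.94), while homologous recombination (2.72) and Fanconi genes (1.72) lie below the protein-coding median (3.31) in each library.

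Cell cycle genes were set beside these groups because recombination and Fanconi genes are known to be used in S and G2 phase. The S phase list (15 genes, replication factors such as Rrm2) had a median of 5.94 ± 0.058 and the G2/M list (14 genes) 4.13 ± 0.12 (log2(TPM + 1), SD, n = 4). In every library the recombination and Fanconi medians lay below both. The summed TPM of the S phase list was 1135, 1211, 1158 and 1246 in replicates 1 to 4. The summed TPM of the 9 recombination genes was 76.8, 86.9, 82.8 and 88.1, and that of the 3 Fanconi genes 6.82, 7.54, 7.18 and 7.84. All 3 sums had the same order of libraries, lowest in replicate 1 and highest in replicate 4. The member sums of end joining (176.2, 193.0, 193.5 and 203.8) and of mismatch repair (37.5, 37.7, 42.6 and 43.7) were also lowest in replicate 1 and highest in replicate 4. These extremes were thus not particular to recombination and Fanconi genes, and several other sums did not have them. The G2/M sum was 273, 298, 249 and 312, lowest in replicate 3. The further recombination genes of the wider list summed to 181, 182, 175 and 185 TPM, also lowest in replicate 3, and its further Fanconi genes to 281, 263, 232 and 263 TPM, highest in replicate 1. With 4 libraries no correlation was computed.

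A wider list of 92 other repair genes gave a fuller picture of each route. Of these, 85 were above and 2 below 1 TPM, and 50 were above and 39 below 10 TPM (edgeR). Of protein-coding genes tested 75.7% were above 1 TPM and 45.2% above 10 TPM, and of all genes tested 65.9% and 35.2%. Below 1 TPM were 11.5% of protein-coding genes and 12.1% of all genes, and below 10 TPM 48.7% and 58.0%. In the nucleotide excision part, 13 of 15 were above 10 TPM, led by Ddb1, an adaptor of a ubiquitin ligase with uses beyond repair, at 308 ± 7.28 TPM, and the TFIIH subunit Gtf2h5 at 181 ± 15.0 TPM (SD, n = 4 each). In the base excision part 12 of 19 were above 10 TPM, with the gap-filling polymerase gene Polb at 99.9 ± 4.48 TPM and Parp2 at 86.4 ± 7.54 TPM. In the end-joining part 4 of 7 were above, with Paxx, a Ku-binding factor, at 97.8 ± 14.3 TPM and the polymerase gene Poll at 81.1 ± 3.19 TPM. In the recombination part 6 of 17 were above and 11 below, with the nuclease genes Mus81 at 45.6 ± 3.73 TPM and Slx1b at 28.7 ± 1.47 TPM highest. In the signalling part 8 of 16 were above, with Tipin, a protein of the fork, at 121 ± 15.0 TPM and Rad9a, of the checkpoint clamp, at 46.5 ± 2.00 TPM. Of 4 further mismatch genes none was called above 10 TPM and 3 were below. Mlh3 was at 9.57 ± 1.98 TPM and Pms1 at 6.33 ± 1.18 TPM.

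Medians of the routes in the wider list did not always follow those of the members. For Fanconi genes, the 3 members had a median of 1.72 ± 0.16, against 3.30 ± 0.092 for the 14 further genes (log2(TPM + 1), SD, n = 4). Of those 14, 7 were called above 10 TPM and 7 below it. Faap24 and Faap100, proteins bound to the core complex, were at 81.8 ± 8.27 and 52.5 ± 8.91 TPM. The low Fanconi median among the members is therefore a value of Fanca, Fancd2 and Fanci. Low levels were not particular to these 3 genes. Brip1 (1.84 TPM), Fan1 (1.89 TPM), Fancm (2.40 TPM) and Fance (2.83 TPM) lay within their range of 1.43 to 3.73 TPM. The rest of the 14 lay above it. For recombination the median was 2.72 ± 0.12 over the members and 2.56 ± 0.095 over the wider list, so that Fanconi genes were below recombination among the members and above it in the wider list, each in 4 of 4 libraries. Mismatch repair had a median of 3.85 ± 0.29 over the 3 members and 1.83 ± 0.083 over the 4 further genes, above recombination in every library among the members and below it in every library in the wider list. Those 4 genes were Mlh3 (9.57 TPM), Pms1 (6.33 TPM), Msh5 (0.792 TPM) and Msh4 (0.122 TPM). Msh4 and Msh5 act in meiotic recombination, so the low median rests partly on them. The order without Msh4 and Msh5 was not computed. For the excision branches, base excision had a median of 4.10 ± 0.089 and nucleotide excision one of 5.30 ± 0.16 in the wider list, the opposite order to the members in every library. End joining (3.86 ± 0.18) and damage signalling (3.49 ± 0.17) were above recombination in the wider list too.

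Genes whose products work as partners were compared within each library as log2 ratios of TPM + 1. Of 20 pairs, 16 had a single sign in all 4 libraries. With 4 libraries the smallest p of an exact permutation test by two-sided sign flips is 0.12. These 16 pairs had that p (0.156 after Benjamini-Hochberg adjustment over the 20 pairs), so no pair could pass a threshold of 0.05. The Ku pair was the tightest, with Xrcc5 over Xrcc6 at 0.57 ± 0.041 (SD, n = 4), or 1.45-fold to 1.53-fold by library. It was 0.13 ± 0.041 with the longest transcripts as length. On the gene-span scale of the deposited TPM this ratio was reversed, at -0.91 ± 0.037. Prkdc was below Xrcc6 by -4.49 ± 0.055, and Xrcc1 below Parp1 by -3.03 ± 0.090. Brca1 exceeded Bard1 by 1.31 ± 0.16, or 2.85-fold to 3.91-fold, and Trp53bp1 exceeded Brca1, its antagonist in the choice of repair route, by 2.49 ± 0.22. The downstream kinase Chek1 exceeded Atr by 1.54 ± 0.18, or by 0.54 ± 0.19 with the longest transcripts, while Chek2 over Atm was 0.15 ± 0.35, positive in 3 of 4 libraries (exact sign-flip permutation p = 0.50). Atr was below Atm by -0.87 ± 0.12 with merged exons, but above it with the longest transcript (0.30 ± 0.11), so their order is not settled. Within the MRN complex, Mre11a and Nbn were below Rad50 by -0.78 ± 0.33 and -0.33 ± 0.12. The other pairs without a single sign were Xrcc2 over Xrcc3 (0.53 ± 0.37), Msh6 over Msh3 (0.63 ± 0.47) and Xpa over Xpc (-0.35 ± 0.31), each with an exact permutation p of 0.25 (0.263 adjusted).

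**Figure D3:**
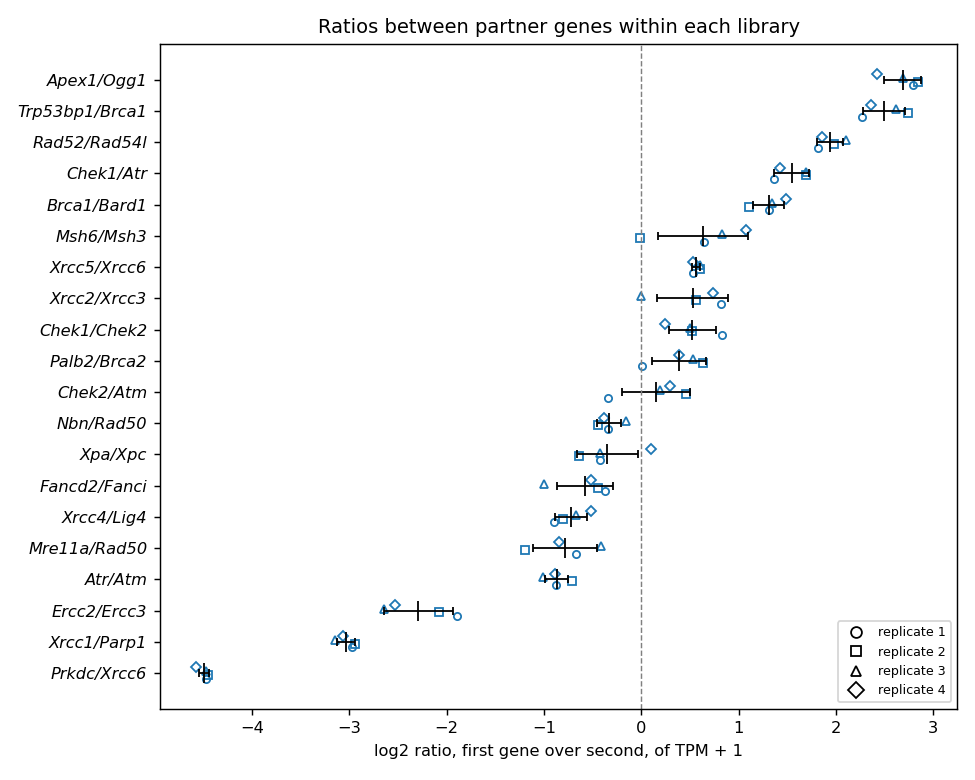
Log2 ratio of TPM + 1, first gene over second, for 20 pairs of partner genes in the 4 libraries (symbols), with mean ± SD (bars); the dashed line marks equal levels. The ratio of Xrcc5 to Xrcc6 varied least (SD 0.041) and that of Msh6 to Msh3 most (SD 0.47).

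The coefficients of variation of the members between libraries ran from 4.14% for Rad50 to 32.2% for Fanca, with a median of 11.8%. On the log2(TPM + 1) scale the median SD was 0.15, against 0.16 for the 200 protein-coding genes nearest in level to each member, and 18 of 37 members exceeded the median of their neighbours. For Bard1 the variation (6.29%) was under that expected from counting alone (10.8%), and for Brca2 (5.74%) too (6.11%), so no difference between libraries was detectable for them at this depth. The next highest after Fanca were Msh6 (26.7%, against 4.04% from counting), Palb2 (25.95%, against 7.01%), Fancd2 (25.8%, against 7.997%) and Chek2 (25.4%, against 7.58%). Replicate 1 was the lowest library for 13 members and replicate 4 the highest for 15. Relative to each gene's own mean, the median member deviated by -0.073 (log2) in replicate 1 and by 0.059 in replicate 4, where the median protein-coding gene deviated by 0.0059 and 0.0077. Other cell types also differed between libraries: the summed TPM of 6 microglia genes was 38.4 in replicate 1 and 16.8 in replicate 4, and that of 5 erythroid genes 4198 in replicate 2 and between 2374 and 2682 in the others. Their part in the levels of repair genes was not tested.

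Long genes stood lower among the members. Across the 37 genes, TPM and exon length had a Spearman rho of -0.55 and a Pearson r of -0.55 (both on log2 scales), against -0.066 and -0.10 across the 15401 protein-coding genes tested. These are descriptions across genes, which are not independent replicates, and the TPM contains the length as its divisor. With no division by length (CPM, scaled to library size alone), the rho was -0.078 for the members and 0.22 for protein-coding genes. The 4 members with the longest exons in all were Atr, Trp53bp1, Brca2 and Prkdc (23629, 14164, 13643 and 13187 bases), of which Trp53bp1 alone was above 10 TPM. The deposited TPM was scaled by the whole gene span, introns included, as tested on 8657 genes, of which 95.4% followed the span within 0.01 on the log2 scale and 0.728% the merged exons. On that scale 3 members, Bard1, Prkdc and Xrcc4, were called below 1 TPM by limma, and Xrcc4, with a span of 315582 bases, was at 0.519 ± 0.0860 deposited TPM. The share of all genes called below 1 TPM on that scale was not determined. Apex1, with a span of 2172 bases, was at 383 ± 40.2 deposited TPM and above Parp1, at 99.0 ± 4.07. Of the 37 members 36 are in that table, Pms2 being the exception.

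**Figure D4:**
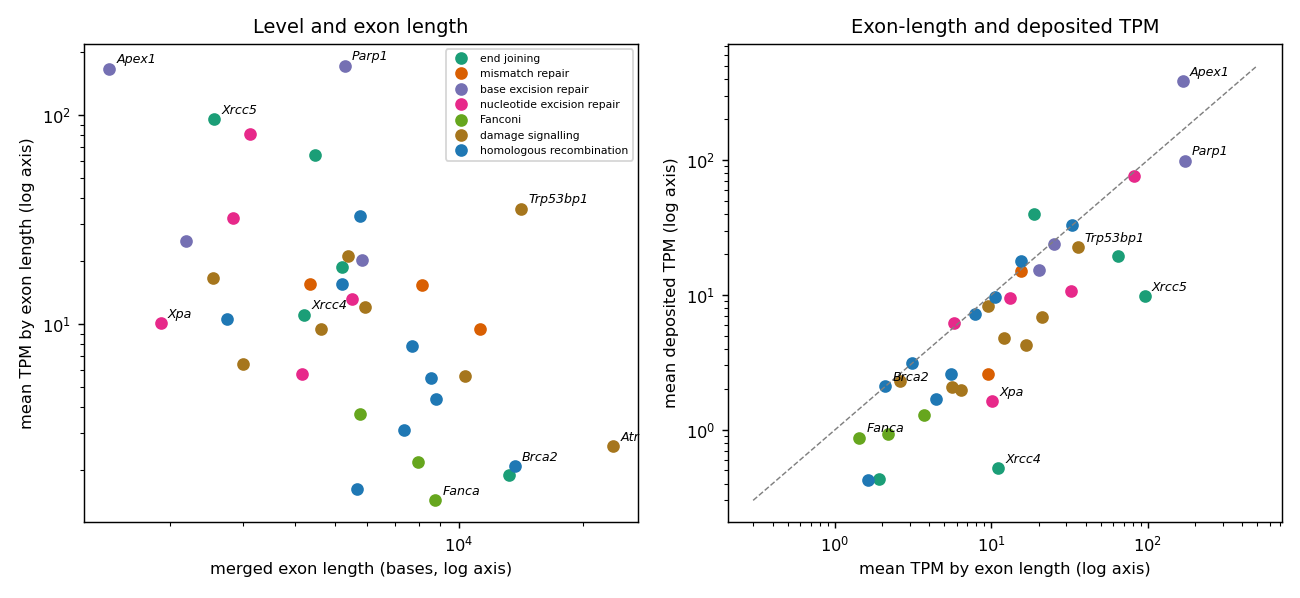
Left, mean TPM by exon length against merged exon length of the 37 members (both log axes, colours are repair groups). Right, mean deposited TPM against mean TPM by exon length for the 36 members in the deposited table (both log axes, dashed line equality); Xrcc4 (0.519 deposited TPM, 11.1 TPM by exon length) lies farthest below the line.

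Some values are limited by overlap with other genes, since the strand setting of the counts is not given, and reads of a gene and its opposite-strand partner then cannot be told apart. Of the 37 members 19 share exonic bases with a gene on the opposite strand, and in 7 the share exceeds 10%: Apex1 and Ercc2 as above, Fanci (16.0%, Polg), Rad54l (15.4%, Lrrc41), Trp53bp1 (15.0%, Tubgcp4), Ogg1 (10.6%, Camk1) and Fanca (10.5%, Zfp276). Lrrc41, at 32.9 ± 2.48 TPM, was more abundant than Rad54l. Polg, at 5.92 ± 0.307 TPM, was also above Fanci (3.73 TPM), and Zfp276, at 2.24 ± 0.468 TPM, above Fanca (1.43 TPM). The partners of Apex1, Ercc2, Trp53bp1 and Ogg1 were below the member. No member shared a stretch of 400 or more bases at 95% identity with a transcript of a gene elsewhere.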

How the data were processed

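RNA from 4 libraries of a single group was analysed. Per the labels' protocols, cDNA was primed with tailed poly-dT, extended by template switching, amplified and sheared for Illumina libraries. The tools bcl2fastq 2.19.1 and STAR 2.5.2b and the build GRCm38 are named per the submitters' processing notes. Not given in the sources used here are the counter, its strand setting and its gene models. The deposited counts are whole reads per Ensembl gene, not normalised. The deposited TPM, made by the authors for 15648 genes, was used only as an alternative scale, because its values follow the gene span.

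TPM was recomputed from the counts with merged exon lengths of GENCODE M21, which holds 45143 of the 45706 identifiers; the other 563 carried at most 0.125% of counts. Genes with at least 10 counts in total were tested against 1 and 10 TPM by a two-sided quasi-likelihood F statistic of the intercept (edgeR 4.0.16 under R 4.3.3) with Benjamini-Hochberg adjustment over all genes tested. Because edgeR's test function takes no design of 1 column, the F statistic was formed from the same deviances, and it was tested on simulated data. The pseudocount on log2 scales was 1 TPM. Alternatives used DESeq2 1.42.0 (Wald test, size factors), TMM, limma 3.58.1 on the deposited TPM, other lengths, filters and pseudocounts, and each library left out.

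All 37 members are named; of the wider list, the 2 of highest mean TPM per group, of marker and cell cycle lists the highest and lowest gene, and further genes that were chosen after their values were seen. Members and lists were chosen with earlier results of these data known. Depth was 26540656 to 34837657 counts per library, and all libraries differed beyond counting noise (chi-square per degree of freedom 9.83 to 26.4, highest for pairs with replicate 4).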

Additional observations from a re-analysis of the deposited data

Results flagged for a closer look

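Of 71 sets of 4 library values (members, group medians, differences and pair ratios), 3 had a library far from the others by Dixon's criterion. Chance meets this criterion in about 1 of 20 sets, so 3 is no more than chance would give. The sets share genes and are not independent. Trp53bp1 was at 31.6 TPM in replicate 1 and between 36.5 and 37.5 TPM in the other 3. It passed narrowly, with a gap over range of 0.830 against a critical value of 0.829. Xrcc5 was at 85.2 TPM in replicate 1 and between 98.6 and 99.5 TPM in the others. Ercc2 was at 7.40 TPM in replicate 1 and between 5.14 and 5.30 TPM in the others.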

How the results depend on the processing

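TMM scaling, DESeq2 size factors, the DESeq2 Wald test and no filter on low counts changed no direction and no call of the results they were run on. Leaving out each library in turn gave 36 to 37 members above 1 TPM and 17 to 18 above 10 TPM, and ended the calls of Fanca and Mre11a given above. Partner ratios changed sign only with the length basis, and so did single levels apart from Xrcc3 and Xpa. Against 10 TPM, Xrcc3 also changed sign without replicate 3, and Xpa without replicate 3 and without replicate 4. Neither gene was called on either side of 10 TPM in these settings or with all libraries. The one group difference that changed sign did so with regrouping.

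On the deposited gene-span TPM, 3 members were below 1 TPM and 11 above 10 TPM, and 7 wider genes were below 1 TPM. With at least 40 counts required, 0 wider genes were below 1 TPM, since both such genes were no longer tested. With no length division, 9 members were below a level of 10. The shares of all genes called in these settings were not determined, so these counts cannot be set against a background. Differences of group medians on the deposited scale were 1.33 for end joining, 0.80 for mismatch repair and 0.35 for damage signalling minus homologous recombination, and 2.32 for base minus nucleotide excision. With the longest transcript they were 1.14 for end joining and 0.50 for signalling minus recombination, and 2.34 between the excision branches. With no length division they were 1.28 for end joining, 1.33 for mismatch, 1.20 for excision and 0.58 for signalling minus recombination, and 1.22 between the excision branches. A pseudocount of 0.1 TPM gave 1.73 for end joining, 2.14 for excision and -1.26 for Fanconi minus recombination. Means in place of medians gave 1.53 for end joining, 0.92 for mismatch and 2.16 for excision minus recombination, and 1.70 between the excision branches. With the MRN genes and Trp53bp1 regrouped, the values minus recombination were 1.44 for end joining, 0.54 for mismatch, 1.39 for excision, -1.59 for Fanconi and -0.52 for signalling. The rho of level with length was -0.078 with no length division. Apart from these divisions by length, the cause of each change was not tested.

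Single levels changed sign too. Against 1 TPM the deposited scale gave log2 differences of -0.49 for Bard1, -0.40 for Xrcc4, -0.48 for Prkdc, -0.10 for Fanca and -0.059 for Fancd2. Against 10 TPM it gave -0.95 for Mre11a, -0.48 for Rad50, -1.07 for Nbn, -2.86 for Xrcc4, -0.029 for Xrcc5, -2.06 for Xpa and -0.074 for Xpc. The longest transcript gave 0.0047 for Rad54l, -0.072 for Mre11a and 0.92 for Msh3. With no length division the values against 10 were 0.58 for Brca1, 0.95 for Rad54l, 0.30 for Blm, 0.88 for Atm, 0.97 for Atr, 0.49 for Chek1, 1.76 for Msh3 and -0.72 for Xpa. Log2 ratios of partners turned to 0.30 for Atr/Atm and -0.64 for Msh6/Msh3 with the longest transcript. On the deposited scale they turned to -0.060 for Chek2/Atm, 0.094 for Atr/Atm and -0.91 for Xrcc5/Xrcc6. With no length division they turned to -0.32 for Palb2/Brca2, -0.45 for Chek1/Atr, -1.46 for Chek2/Atm, 0.085 for Atr/Atm, -0.23 for Xrcc5/Xrcc6 and -0.66 for Msh6/Msh3.

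Depth limits the lowest members, Fanca and Bard1, with 69 to 159 counts per library. No paired analysis was possible because the 4 libraries form 1 group.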

Other observations

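Of the wider repair list, 7 of 92 genes were not called above 1 TPM. Msh4, which together with Msh5 acts in meiotic recombination, was at 0.122 TPM and called below 1 TPM (edgeR adjusted p = 0.00161), as was the glycosylase gene Neil2 at 0.198 TPM (adjusted p = 0.00195). Msh5 (0.792 TPM), Rad51b (0.668 TPM), Rmi2 (0.640 TPM), Gen1 (1.27 TPM) and Atrip (1.04 TPM) were called on neither side, with edgeR adjusted p from 0.102 to 0.777. Atrip encodes the partner of the Atr kinase, which was itself among the lower members at 2.60 TPM. These genes were named after their values were seen.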
